A study of Mus musculus with 32 samples.

Results

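The 37 genes described here encode cell junction and polarity proteins of the compacting mouse embryo, and were followed from the oocyte to the blastocyst and through 2 siRNA knockdowns. They were chosen by name from a fixed list: 6 adherens junction genes, 6 desmosome genes, 12 tight junction genes, 2 connexins, 8 polarity genes and the 3 ERM genes, which encode linkers of actin to the membrane. All 37 were found among the 24013 genes of the stage table and among the 22536 genes of each knockdown table. RNA sequencing with polyadenylated RNA and a slightly modified Smart-seq2 protocol, a full-length method for very few cells, was performed on 32 samples. Embryos were siRNA-injected against Nr5a2 and taken at the 8-cell stage (4 libraries) beside 4 control libraries of injected 8-cell embryos, or injected against Gata4 and taken as blastocysts (4 libraries) beside 3 control blastocyst libraries. What the control embryos were injected with is not given in the labels. Uninjected material was sampled 2 times each as MII oocytes, as zygotes and as early 2-cell, 2-cell, 4-cell and uninjected 8-cell embryos, 3 times as inner cell mass (ICM) and 2 times as embryonic stem cells (mESC) of line R1. Oocytes were from superovulated C57BL/6N females and all embryos from such females mated with DBA/2N males, with the zona pellucida removed before lysis. ICM was obtained by immunosurgery, which kills the outer cells of the blastocyst, and mESC were grown with LIF and serum. After injection, culture was in glutamine-supplemented CZB.

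At compaction, blastomeres flatten against each other through E-cadherin and its catenins, and each cell gains an apical pole that carries atypical protein kinase C, PAR6 and ezrin. Tight junctions then seal the outer cells, which become trophectoderm and pump fluid to form the blastocyst cavity, while gap junctions couple the cells and desmosomes reinforce the trophectoderm. Much of this machinery is first supplied by the oocyte as stored RNA and protein, and is later replaced from the embryonic genome.

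The claudins, the strand-forming membrane proteins of tight junctions, had their highest levels at different stages, so the start-site windows of Cldn6, Cldn7, Cldn4 and Cldn3 are shown. Each window holds 300 bases, most of them before an annotated RefSeq transcription start in GRCm38.p6, written 5′ to 3′ on the strand of the gene. Capitals mark matches to GGAATG (the TEAD motif, or CATTCC on the other strand) in Cldn6 and Cldn7 and to GCCNNNGGC (the TFAP2 motif) in Cldn3. The Cldn6 window lies at chr17:23679115-23679414 on the plus strand, that of Cldn7, 1 of 2 windows of this gene, at chr11:69964529-69964828 on the plus strand, that of Cldn4 at chr5:134946885-134947184 on the minus strand and that of Cldn3 at chr5:134985964-134986263 on the plus strand.
Cldn6: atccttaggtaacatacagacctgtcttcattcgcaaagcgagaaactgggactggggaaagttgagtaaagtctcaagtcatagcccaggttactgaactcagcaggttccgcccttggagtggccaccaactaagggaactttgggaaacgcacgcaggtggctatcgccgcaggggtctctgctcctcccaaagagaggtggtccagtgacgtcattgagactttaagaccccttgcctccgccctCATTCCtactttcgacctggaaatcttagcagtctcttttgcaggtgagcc
Cldn7: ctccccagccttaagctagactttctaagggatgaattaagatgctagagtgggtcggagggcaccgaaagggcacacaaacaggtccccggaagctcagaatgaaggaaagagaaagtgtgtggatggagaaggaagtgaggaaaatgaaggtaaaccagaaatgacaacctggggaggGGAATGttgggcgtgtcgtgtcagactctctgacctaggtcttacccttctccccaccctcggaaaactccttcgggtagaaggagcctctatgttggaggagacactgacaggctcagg
Cldn4: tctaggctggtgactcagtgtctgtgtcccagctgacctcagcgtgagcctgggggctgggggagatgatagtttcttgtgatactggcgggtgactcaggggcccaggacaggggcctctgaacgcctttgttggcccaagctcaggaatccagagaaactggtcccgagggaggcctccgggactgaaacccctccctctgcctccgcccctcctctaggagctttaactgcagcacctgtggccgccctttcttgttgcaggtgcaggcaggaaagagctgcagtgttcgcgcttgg
Cldn3: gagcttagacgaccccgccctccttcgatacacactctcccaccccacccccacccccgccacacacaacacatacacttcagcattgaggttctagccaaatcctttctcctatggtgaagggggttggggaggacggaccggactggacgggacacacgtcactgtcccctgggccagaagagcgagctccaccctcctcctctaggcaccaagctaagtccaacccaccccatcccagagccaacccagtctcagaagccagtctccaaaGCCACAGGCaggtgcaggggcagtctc

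Cldn4 and Cldn3 are neighbours on chromosome 5 with 0 annotated genes between them, and lie on opposite strands. Of the 37 genes, 28 had such windows, 43 in all. CAAGGNCA, the motif of the nuclear receptor NR5A2, was searched on both strands and matched 0 of these 43 windows, against 6.71% of 32851 windows of all genes. AGATAA, the GATA motif, matched 6.98% of the 43 windows (in Gja1, Mark2 and Tjp3) and 11.2% of all windows. GGAATG matched 9.3% (in Cldn6, Cldn7, Crb3 and Prkci) and 14.7% of all windows. GCCNNNGGC matched 44.2% and 16.6% of all windows. The 43 windows had a median GC content of 60.7%, against 52.7% over all windows, and this motif is itself rich in G and C. None of the 4 motifs contains another, and both strands were searched for each. A match describes these letters and not binding, and no match concerns only this window.

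Values are FPKM (fragments scaled to transcript length and to the mapped fragments of the library), as the authors deposited them, with 1 value per gene and stage in the stage table and 1 per library in the knockdown tables. The stage values therefore have no replicate error and no test, and a gene is called higher or lower between stages where log2(FPKM + 1) differed by 1 or more and the higher stage had 5 FPKM or more. Sums of FPKM ranged from 234738 to 495643 per stage, from 285293 to 308689 over the injected 8-cell libraries and from 237292 to 366359 over the blastocyst libraries. Read totals are not given in the sources used here, so no counting interval can be given. The ribosomal RNA gene Rn45s was listed at 0 in all stages except MII oocytes, early 2-cell embryos and mESC, and in 3 of 7 blastocyst libraries (knockdown 1, knockdown 2 and control 2), which divides the libraries into 2 types. Sums of oocyte, pluripotency and trophectoderm markers followed the labels. The sum of primitive endoderm markers did not, and neither did all single markers. The 8 oocyte genes summed to 11612 FPKM in MII oocytes, the 8 pluripotency genes to 1128 FPKM in ICM, and the 13 trophectoderm genes to 3312 to 4809 FPKM in control blastocysts. The sum of the trophectoderm genes was 349 FPKM in ICM, with 11 of 13 at 1 FPKM or more. Among these, Aqp8 was at 99.3 FPKM in ICM, against 5.94, 4.00 and 15.1 FPKM in control blastocysts. Of primitive endoderm markers, Lamb1 was at 213 FPKM in MII oocytes and 30.5 FPKM in ICM, and Dab2 at 36.0 and 9.63 FPKM. The sum of that list was therefore higher in MII oocytes than in ICM. Of cumulus and granulosa cell markers, Cyp19a1 was at 24.7 FPKM in MII oocytes and Amhr2 at 46.1 FPKM in 4-cell embryos. The others of that list stayed below 1 FPKM in every stage. The 6 markers of fibroblasts summed to at most 1.54 FPKM in every stage. Values of Ctnnd1 and Prkcz are uncertain, because annotated transcripts of other names (Gm28635 and Prkcz2) match their coding sequences almost fully. Reads can be divided between such transcripts. Prkcz2 is annotated as a processed pseudogene, and whether Gm28635 has a locus apart from Ctnnd1 was not examined. In embryos, fewer cells of a type and less RNA per cell cannot be told apart.

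Across the 8 stages the genes split into a set that was highest in the oocyte and a set that was highest at the 8-cell stage or in ICM. Of 29 members that reached 5 FPKM at some stage, 13 (44.8%) were highest in MII oocytes, against 26.2% of 9573 genes by the same rule. A further 9 (31.0%) were highest in ICM, against 17.7% of all genes, and 5 (17.2%) in 8-cell embryos, against 9.74%. Over all 37 the highest stage was the MII oocyte for 14, ICM for 11, the 8-cell stage for 6, the early 2-cell and 4-cell stages for 2 each, and the 2-cell stage and mESC for 1 each. The number of members at 1 FPKM or more was 21, 19, 22, 24, 24, 28, 33 and 25 from MII oocyte to mESC, with the maximum in ICM. In the list of 69 other junction and polarity genes, 35 reached 5 FPKM, of which 11 were highest in MII oocytes and 10 in ICM.

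**Figure D1:**
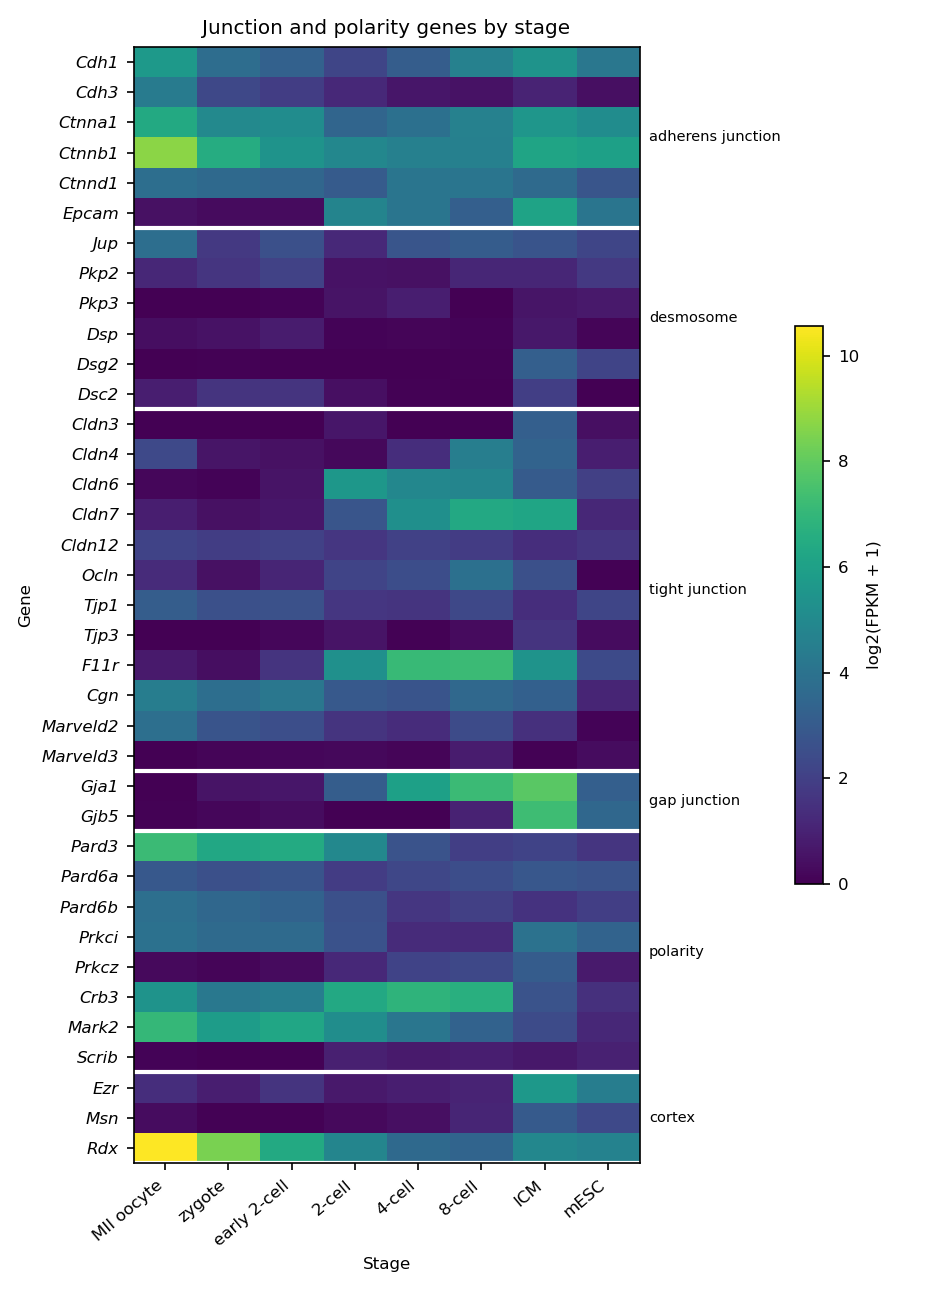
Level of each of the 37 genes (rows, grouped by role) in each of the 8 stages (columns, MII oocyte to mESC) as log2(FPKM + 1) of the 1 deposited value per stage. Brighter colours are higher levels. The rows of Rdx, Ctnnb1, Pard3 and Mark2 are brightest in the oocyte, and that of Crb3 at the 4-cell stage. F11r, Cldn7 and Gja1 brighten between the 2-cell and 8-cell stages, and Ezr, Gjb5 and Dsg2 brighten in ICM.

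Among adherens junction genes, Cdh1, Ctnna1 and Ctnnb1 were highest in the oocyte and reached their lowest level between the 2-cell and 8-cell stages. Cdh1, which encodes E-cadherin, the adhesion molecule of compaction, was at 51.5 FPKM in MII oocytes, 12.8 in zygotes, 8.63 in early 2-cell, 3.67 in 2-cell, 7.67 in 4-cell and 23.8 in 8-cell embryos, 42.3 in ICM and 17.3 in mESC. Its lowest value was thus at the 2-cell stage, and it was higher in 8-cell than in 4-cell embryos. Ctnna1, the alpha-catenin that ties the complex to actin, was likewise lowest at the 2-cell stage, with 85.2 FPKM in MII oocytes, 9.96 at the 2-cell stage, 23.8 at the 8-cell stage and 45.4 in ICM. Ctnnb1, beta-catenin, was at 419 FPKM in MII oocytes, 92.5 in zygotes, 41.8 in early 2-cell, 28.6 in 2-cell, 23.1 in 4-cell and 23.0 in 8-cell embryos, 70.1 in ICM and 62.3 in mESC. Its level thus stayed flat from 4-cell to 8-cell embryos. Ctnnd1, delta-catenin, which steadies cadherin at the membrane, stayed between 5.96 and 16.4 FPKM. Cdh3, P-cadherin, was at 19.9 FPKM in MII oocytes and at 0.438 FPKM in 8-cell embryos, so that Cdh1 made up 72.1% of the summed FPKM of both cadherins in MII oocytes and 98.2% in 8-cell embryos. Epcam, an epithelial adhesion molecule, was the only one of the 6 with an onset after fertilization, at 0.254 FPKM in early 2-cell and 25.9 FPKM in 2-cell embryos and at 69.4 FPKM in ICM.

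Desmosome genes were low before the blastocyst. Jup, plakoglobin, a catenin of both desmosomes and adherens junctions, was the only one of the 6 above 5 FPKM before ICM, with 13.2 FPKM in MII oocytes, 1.35 at the 2-cell stage and 7.50 at the 8-cell stage. Dsg2, a desmosomal cadherin, was at 8.28 FPKM in ICM, against at most 0.0562 FPKM in every earlier stage. Dsc2, its partner cadherin, peaked at 2.94 FPKM in ICM and was listed at 0 in 8-cell embryos and mESC. The plakophilins Pkp2 and Pkp3 reached at most 3.30 and 0.841 FPKM, and Dsp, desmoplakin, which anchors keratin filaments, at most 0.723 FPKM. Of other desmosome genes, Perp was at 0.237 FPKM in 4-cell embryos, 8.63 in 8-cell embryos and 19.6 in ICM.

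Tight junction genes differed in the stage of their highest level. Cldn6 was at 0.455 FPKM in early 2-cell, 46.5 in 2-cell, 29.0 in 4-cell and 26.9 in 8-cell embryos and 7.13 in ICM. Cldn7 followed, at 5.94 FPKM in 2-cell, 37.3 in 4-cell and 82.5 in 8-cell embryos and 72.6 in ICM. Cldn4 was at 4.00 FPKM in MII oocytes, 0.179 in 2-cell, 1.63 in 4-cell and 22.1 in 8-cell embryos and 9.31 in ICM. Cldn6 was thus highest at the 2-cell stage and Cldn7 and Cldn4 at the 8-cell stage, and Cldn4 was already present in the oocyte, where it held 47.7% of the summed FPKM of the 5 claudins. Cldn3 was listed at 0 in 8-cell embryos and reached 8.06 FPKM in ICM, while its neighbour Cldn4 was lower in ICM than in 8-cell embryos. Cldn12 stayed between 1.63 and 3.40 FPKM. Within the same sum, Cldn6 held 84.0% at the 2-cell stage and Cldn7 held 61.5% at the 8-cell stage and 73.5% in ICM.

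F11r, the immunoglobulin-like junctional adhesion molecule JAM-A, was the most abundant tight junction member in 4-cell and 8-cell embryos, at 1.96 FPKM in early 2-cell, 38.9 in 2-cell, 137 in 4-cell and 146 in 8-cell embryos, 42.4 in ICM and 4.24 in mESC. Ocln, occludin, was at 3.42 FPKM in 2-cell, 4.57 in 4-cell and 14.1 in 8-cell embryos and 5.01 in ICM. Marveld2, tricellulin, which sits at cell corners, was instead highest in the oocyte, with 13.4 FPKM in MII oocytes and 4.30 at the 8-cell stage, so that Ocln made up 9.9% of the summed FPKM of the MARVEL genes in MII oocytes and 73.6% in 8-cell embryos. Marveld3 stayed at or below 0.741 FPKM. The cytoplasmic plaque genes Cgn and Tjp1 were highest in the oocyte. Cgn, cingulin, was at 21.4 FPKM in MII oocytes, 5.61 at the 4-cell and 10.8 at the 8-cell stage, and Tjp1, the scaffold ZO-1, at 7.61, 1.97 and 3.83 FPKM in the same stages. Tjp3, the scaffold ZO-3, was at 0.229 FPKM or less in 4-cell and 8-cell embryos and at 2.02 FPKM in ICM.

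The connexin genes Gja1 and Gjb5, whose products form gap junction channels, were nearly absent from the oocyte. Gja1 was listed at 0 in MII oocytes and was at 7.58 FPKM in 2-cell, 63.2 in 4-cell and 145 in 8-cell embryos, 233 in ICM and 8.15 in mESC. Gjb5 was at 1.01 FPKM in 8-cell embryos and 153 FPKM in ICM. Of the other connexins, Gja4, which forms the gap junctions of the oocyte with its follicle cells, was at 38.6 FPKM in MII oocytes and 1.19 in 2-cell embryos.

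Polarity genes divided into those highest in the oocyte and those highest later, also within a complex. Pard3, the PAR3 scaffold, was at 147 FPKM in MII oocytes, 79.4 in zygotes, 85.8 in early 2-cell, 29.3 in 2-cell, 5.52 in 4-cell and 2.91 in 8-cell embryos and 3.33 in ICM. Mark2, a kinase of the basolateral side, was at 129.5 FPKM in MII oocytes, 35.7 in 2-cell and 9.12 in 8-cell embryos, 4.27 in ICM and 1.25 in mESC. Both were thus lower at the 8-cell stage than in any earlier one. The atypical protein kinase C gene Prkci was at 14.5 FPKM in MII oocytes, 5.29 in 2-cell, 1.48 in 4-cell and 1.38 in 8-cell embryos and 14.8 in ICM. Its paralogue Prkcz was at 0.191 FPKM in MII oocytes, 1.31 in 2-cell, 3.42 in 4-cell and 3.89 in 8-cell embryos and 7.52 in ICM. Prkcz therefore held 1.3% of their sum in MII oocytes, 73.8% in 8-cell embryos and 33.7% in ICM, with the limit that reads of Prkcz can come from its copy. The PAR6 gene Pard6b was at 13.4 FPKM in MII oocytes and 2.98 at the 8-cell stage, while Pard6a lay between 2.65 and 6.61 FPKM at all stages. Crb3, the small Crumbs protein of the apical membrane, was the most abundant of the 8 polarity genes from the 2-cell to the 8-cell stage, with 41.4 FPKM in MII oocytes, 17.8 in zygotes, 21.2 in early 2-cell, 81.8 in 2-cell, 117 in 4-cell and 99.5 in 8-cell embryos and 5.46 in ICM. Scrib, a basolateral scaffold, did not exceed 0.977 FPKM.

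The ERM genes differed in order between oocyte and ICM. Rdx, radixin, was at 1509.7 FPKM in MII oocytes, 343 in zygotes, 84.9 in early 2-cell, 27.3 in 2-cell, 11.1 in 4-cell and 9.57 in 8-cell embryos and 28.9 in ICM. Ezr, ezrin, a marker of the apical pole of polarized blastomeres, was at 1.64 FPKM in MII oocytes and 1.07 in 8-cell embryos, and at 49.0 FPKM in ICM. Msn, moesin, was at 1.11 FPKM in 8-cell embryos and 6.93 in ICM. Rdx held 99.9% of their summed FPKM in MII oocytes, 81.5% at the 8-cell stage and 34.1% in ICM, where Ezr held 57.7%. Protein was not measured.

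**Figure D2:**
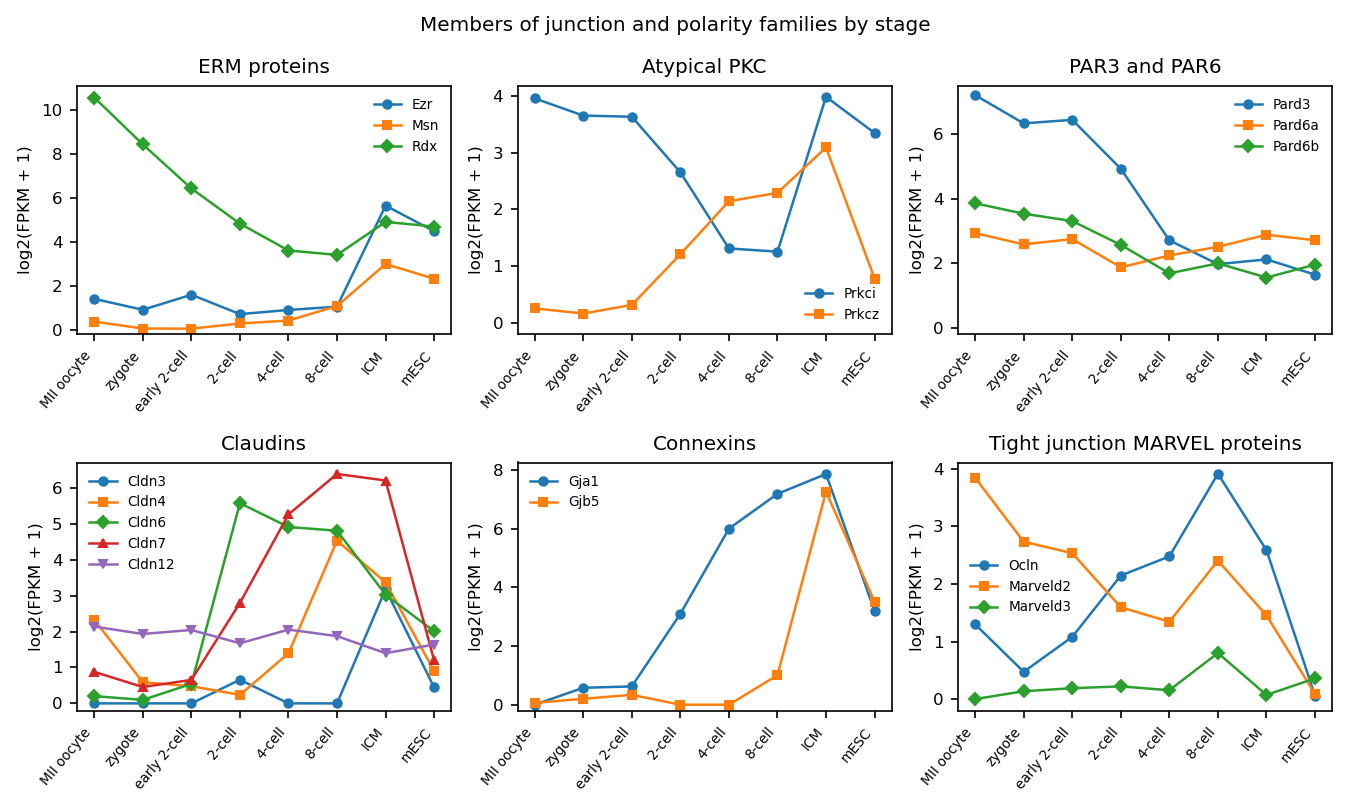
Levels of paralogous members of 6 families across the 8 stages, as log2(FPKM + 1) of the 1 deposited value per stage, with 1 line per gene. Rdx lies above Ezr until the 8-cell stage and below it in ICM, and Prkcz lies above Prkci in 4-cell and 8-cell embryos only. Cldn12 is highest in the oocyte, and the other claudins reach their maxima in the order Cldn6, Cldn7 and Cldn4 (both 8-cell), Cldn3.

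Step by step, only lower members were found up to the early 2-cell stage and only higher ones at the 8-cell stage. From oocyte to zygote, 0 of 16 members with 5 FPKM in either stage were higher and 9 were lower, against 12.6% and 21.6% of all genes. From zygote to early 2-cell, 0 of 14 were higher and 2 lower, against 5.33% and 8.58%. At the 2-cell stage relative to early 2-cell, 6 of 18 were higher (Cldn6, Cldn7, Crb3, Epcam, F11r and Gja1) and 6 lower (Cdh1, Cgn, Ctnna1, Mark2, Pard3 and Rdx), against 34.7% and 34.3% of all genes. With median scaling 6 were higher and 11 lower, against 31.6% and 38.3% of all genes. At the 4-cell relative to the 2-cell stage, 5 of 16 were higher and 4 lower, against 24.1% and 17.3%. At the 8-cell relative to the 4-cell stage, 5 of 17 were higher (Cdh1, Cldn4, Cldn7, Gja1 and Ocln) and 0 were lower, against 6.9% and 9.71% of 6003 genes. The labels do not say whether the 8-cell embryos had compacted. In the list of other junction genes 4 of 15 were higher at this step (among them Amotl2, Perp and Pvrl2) and 1 was lower (Ctnnbl1). With the stages scaled to a common median the members numbered 6 higher and 0 lower, against 10.3% and 6.59% of all genes.

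In ICM relative to 8-cell embryos, 9 of 24 members were higher (Cldn3, Ctnnb1, Dsg2, Epcam, Ezr, Gjb5, Msn, Prkci and Rdx) and 5 lower (Cldn4, Cldn6, Crb3, F11r and Ocln), against 27.8% and 21.9% of all genes. With median scaling these were 9 and 6, against 22.3% and 28.7%. In mESC relative to ICM, 0 of 23 members were higher and 15 were lower, against 11.6% and 40.6% of all genes. The median difference at this step was -1.24 on the log2 scale over the 23 members, against -0.72 over the 6224 genes of that share. Over genes with 1 FPKM or more at any stage it was -0.26. With median scaling 0 members were higher and 9 lower (Cgn, Cldn3, Cldn4, Cldn7, Epcam, F11r, Gja1, Gjb5 and Prkcz), against 22.5% and 21.6% of all genes. Between MII oocytes and 8-cell embryos as a whole, 8 of 23 were higher at the 8-cell stage and 10 lower, against 38% and 43.2% of all genes.

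Knockdown of Nr5a2, a nuclear receptor gene, allowed the junction genes of 8-cell embryos with less Nr5a2 RNA to be compared with controls. Nr5a2 itself was at 3.76, 4.25, 6.72 and 6.60 FPKM in knockdown libraries 1 to 4, against 23.6, 20.3, 13.1 and 25.2 FPKM in control libraries 1 to 4, with no overlap (limma adjusted p = 0.0143). Of the 37 members, 25 passed the filter of 1 FPKM in at least 4 libraries, and 0 were called at an adjusted p under 0.05 by limma, against 2.26% of 8170 genes (128 genes, 1.57%, higher and 57 genes, 0.698%, lower). At an unadjusted p under 0.05 there were 5 members, against 20.6% of all genes, and 2 members had groups that did not overlap, against 11.8%. Among the 25 members 9 differences were positive and 16 negative, with a median of -0.09 on the log2 scale (-0.18 to -0.038 leaving out 1 library), against 0.12 over all genes tested. The ends of that range were without knockdown 4 and without control 2. The share of members called or not overlapping was thus not above that of all genes. By group, the median difference was -0.36 over 9 tight junction genes, -0.04 over 5 adherens junction genes, 0.03 over 2 desmosome genes and -0.08 over 6 polarity genes. With median scaling the median of the members was -0.20 and that of all genes -0.0059, and the calls over all genes were 67 higher and 81 lower. Since separate cultures or litters are not named in the labels, all p-values measure the spread between these libraries, which may be technical.

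Cldn4 had the lowest p of the 25 members, with 17.6, 16.4, 53.0 and 36.7 FPKM in Nr5a2 knockdown libraries, against 137, 83.8, 89.8 and 36.6 FPKM in control libraries. The groups overlapped only through control 4, which lay between the knockdown libraries. The difference, given for each gene in parentheses as knockdown minus control on the log2(FPKM + 1) scale with its SE, was -1.48 ± 0.43 (n = 4 each, limma adjusted p = 0.0962), and its adjusted p was 0.0467 without knockdown 3 and 0.0562 to 0.231 without any other library. Within the summed FPKM of the 5 claudins, Cldn4 held 8.61% to 16.7% in knockdown and 19.7% to 43.2% in control libraries, and Cldn7 79.4% to 84.9% in knockdown and 53.9% to 75.3% in control libraries. These shares did not overlap, and were looked at after the values of Cldn4 were seen. Cldn7 itself was at 166, 153, 252 and 269 FPKM in knockdown, against 171, 181, 328 and 127 FPKM in control libraries. Cldn6 was at 12.7, 16.1, 9.10 and 8.81 FPKM in knockdown, against 8.21, 19.2, 17.6 and 18.7 FPKM in control libraries, with control 1 far below the other controls and the ranges overlapping (-0.39 ± 0.30, limma adjusted p = 0.486), and without control 1 the difference was -0.66.

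The other members with an unadjusted p under 0.05 were Ezr, Cldn12, Prkcz and Crb3. Ezr was at 2.94, 1.22, 1.13 and 1.32 FPKM in knockdown libraries, against 0.941, 0.329, 0.318 and 0.38 FPKM in control libraries, all low levels without overlap, with means of 1.65 ± 0.859 FPKM in knockdown and 0.492 ± 0.301 FPKM in control libraries (SD, n = 4 each) (0.80 ± 0.26, limma adjusted p = 0.132). Prkcz was at 1.28, 1.61, 2.04 and 1.16 FPKM in knockdown libraries, against 2.62, 4.88, 2.62 and 2.32 FPKM in control libraries, again without overlap, with means of 1.52 ± 0.394 FPKM in knockdown and 3.11 ± 1.19 FPKM in control libraries (-0.68 ± 0.26, limma adjusted p = 0.172). The apical kinase gene and the apical ERM gene thus lay on opposite sides of their controls. Cldn12 was at 0.985, 4.52, 3.29 and 2.44 FPKM in knockdown libraries, against 0.215, 0.596, 0.483 and 2.22 FPKM in control libraries, with knockdown 1 below control 4 (1.03 ± 0.38, limma adjusted p = 0.158). Crb3 was at 105, 68.1, 130.0 and 56.5 FPKM in knockdown libraries, against 149, 104, 115 and 144 FPKM in control libraries, with overlap at knockdown 1 and 3 (-0.57 ± 0.25, limma adjusted p = 0.234).

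The core genes of compaction differed by less. Cdh1 was at 7.24, 17.3, 20.3 and 16.5 FPKM in Nr5a2 knockdown libraries, against 22.4, 19.6, 22.1 and 21.0 FPKM in control libraries. Knockdown 1 was the lowest and knockdown 3 lay within the controls (-0.53 ± 0.28, limma adjusted p = 0.308), and without knockdown 1 the difference was -0.23. Ctnnb1 was at 60.2, 64.0, 51.4 and 68.9 FPKM in knockdown libraries, against 50.7, 45.4, 36.2 and 61.5 FPKM in control libraries, with overlapping ranges (0.35 ± 0.20, limma adjusted p = 0.34). Tjp1 was at 4.13, 2.43, 2.04 and 2.32 FPKM in knockdown, against 3.40, 2.83, 2.42 and 4.27 FPKM in control libraries (-0.19 ± 0.26, limma adjusted p = 0.702). Gja1 was at 162, 86.3, 151 and 129.9 FPKM in knockdown, against 116, 143, 118 and 142 FPKM in control libraries, and the knockdown libraries spanned the controls on both sides (-0.0032 ± 0.20, limma adjusted p = 0.995). Pard6b was at 2.79, 3.60, 4.38 and 2.34 FPKM in knockdown, against 1.08, 4.15, 1.47 and 6.41 FPKM in control libraries, where the control values spread further (0.17 ± 0.39, limma adjusted p = 0.838). Prkci, at 1.85, 1.32, 0.787 and 0.927 FPKM in knockdown, against 0.595, 1.09, 0.888 and 0.956 FPKM in control libraries, was below the filter and was not tested.

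**Figure D3:**
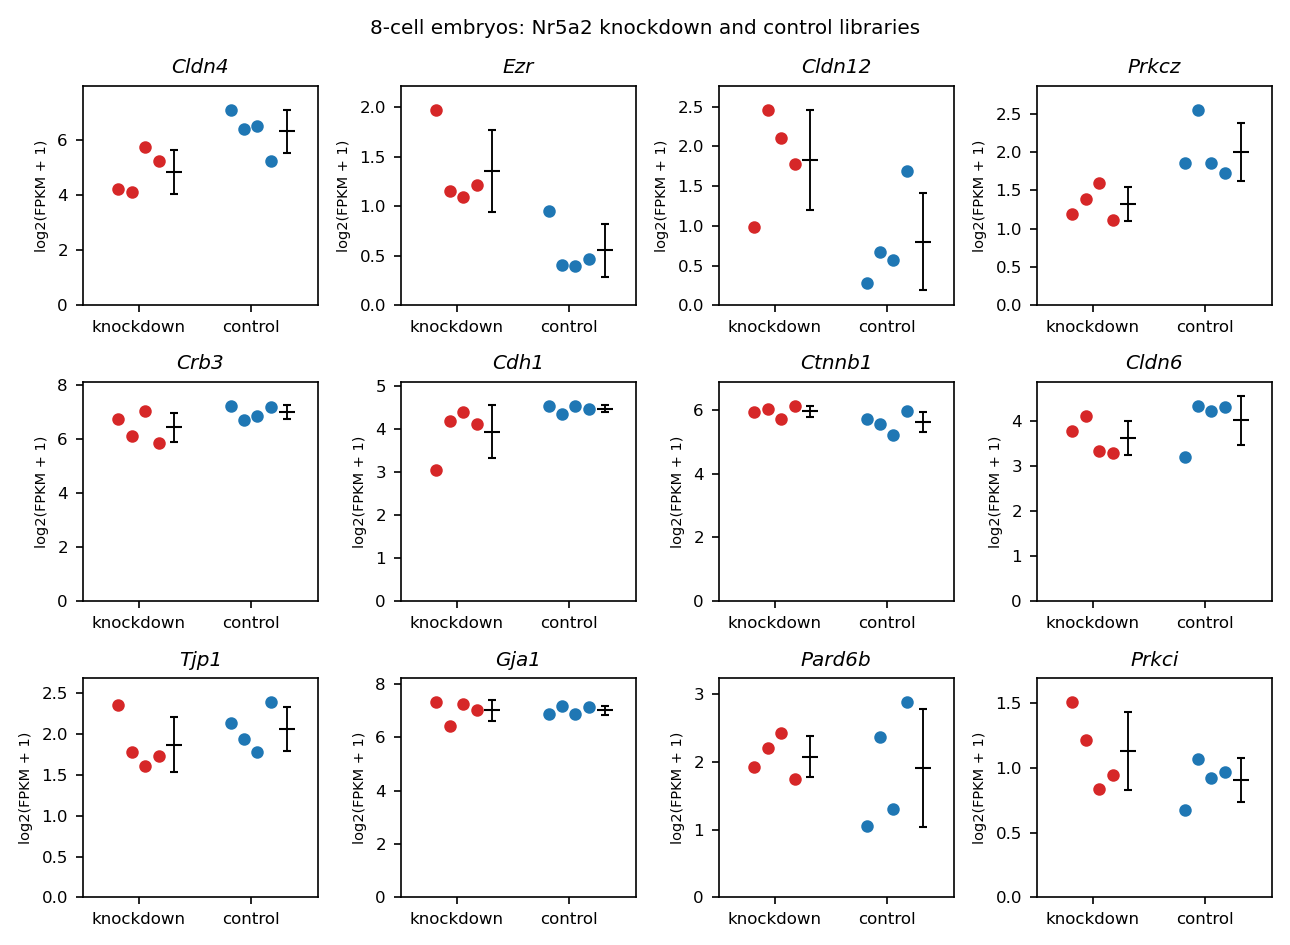
Level of 12 junction and polarity genes in each library of 8-cell embryos as log2(FPKM + 1), with Nr5a2 knockdown libraries (4, red) to the left of control libraries (4, blue). Bars give the mean and SD of each group. Ezr and Prkcz have groups that do not overlap, Cldn4 overlaps only at control 4, and the points of Gja1 and Tjp1 intermingle.

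The 12 members below the filter were Cdh3, Pkp3, Dsp, Dsg2, Dsc2, Cldn3, Tjp3, Marveld3, Gjb5, Pard3, Prkci and Msn. Tjp3 was at 0.0493, 0.302, 0.496 and 0 FPKM in knockdown libraries, against 0.684, 0.622, 0.612 and 1.44 FPKM in control libraries, without overlap but at levels too low for the test. Of the 69 other junction genes 29 were tested, 0 were called by limma and 4 had an unadjusted p under 0.05. The closest to the threshold was Nf2, merlin, a cortical ERM relative that acts in Hippo signalling, at 16.9, 10.3, 12.3 and 14.1 FPKM in knockdown libraries, against 32.1, 19.4, 24.5 and 31.7 FPKM in control libraries. These did not overlap (-0.95 ± 0.23, limma adjusted p = 0.0576), and with median scaling the adjusted p was 0.0415. Llgl1, a basolateral polarity gene, was at 5.76 to 14.3 FPKM in knockdown and 13.6 to 17.5 FPKM in control libraries (limma adjusted p = 0.209), and Mark1, a kinase related to Mark2, at 1.62 to 4.48 FPKM in knockdown and 0.777 to 1.77 FPKM in control libraries (limma adjusted p = 0.142). Abundant genes of the list differed by less than the spread, such as Cdc42, the small GTPase of polarity, with mean levels of 96.7 FPKM in knockdown and 95.3 FPKM in control libraries. Beside these results, the sum of 13 trophectoderm markers was 130.2 to 167 FPKM in knockdown and 103 to 120.1 FPKM in control libraries, and the sum of 8 pluripotency markers 36.7 to 155 FPKM in knockdown and 151 to 284 FPKM in control libraries. The trophectoderm sums did not overlap and the pluripotency sums did, at 1 library each. The part of these sums in the differences of junction genes was not tested. Single trophectoderm markers went in both directions. Tfap2c, the largest in every control library, was at 28.95 to 62.6 FPKM in knockdown and 47.3 to 72.3 FPKM in control libraries. Only knockdown 1 lay within the control range of Tfap2c, and the others lay below it. Gata3 was at 4.87 to 13.2 FPKM in knockdown and 0.182 to 3.36 FPKM in control libraries. Krt18 was at 10.5 to 70.4 FPKM in knockdown and 5.26 to 42.5 FPKM in control libraries, with overlap.

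Knockdown of Gata4, a transcription factor gene of primitive endoderm, was examined in whole blastocysts, which hold trophectoderm as well as ICM. Gata4 was listed at 0, 0.368, 0 and 0 FPKM in knockdown libraries 1 to 4, against 3.18, 0.716 and 5.44 FPKM in control libraries 1 to 3. Of the 37 members 36 passed the filter, all but Cdh3, and 0 were called by limma, against 0.0342% of 8782 genes (3 genes, all lower). At an unadjusted p under 0.05 there was 1 member, against 2.3% of all genes, and 2 members had groups that did not overlap, against 2.38%. Differences were positive for 13 members and negative for 23, with a median of -0.10 on the log2 scale, against -0.02 over all genes tested. This median was -0.31 without knockdown 1, -0.25 without knockdown 2 and -0.28 without control 1, and 0.040, 0.022 and 0.050 without knockdown 3, knockdown 4 and control 2, so its sign depended on single libraries. The median SE of a member was 0.43, against 0.28 in the 8-cell comparison.

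The member with an unadjusted p under 0.05 was Tjp3, at 23.7, 13.4, 13.3 and 21.4 FPKM in Gata4 knockdown libraries, against 24.3, 35.5 and 40.8 FPKM in control libraries. The groups did not overlap, although knockdown 1 and control 1 were close, and averaged 17.96 ± 5.39 FPKM in knockdown and 33.5 ± 8.39 FPKM in control libraries (SD, n = 4 and 3) (-0.88 ± 0.43, limma adjusted p = 0.99997). Cldn7 was at 361, 270.2, 217 and 373 FPKM in knockdown libraries, against 403, 393 and 535 FPKM in control libraries, also without overlap (-0.56 ± 0.37, limma adjusted p = 0.99997). Cldn4 was at 131, 103, 52.4 and 140.0 FPKM in knockdown libraries, against 144, 136 and 331 FPKM in control libraries, where control 3 stood above all others (-0.89 ± 0.44, limma adjusted p = 0.99997). Without control 3 the difference of Cldn4 was -0.48. Of the 12 tight junction genes 8 differences were negative and 4 positive (Cldn6, Marveld2, Cgn and Tjp1), and 0 passed the threshold.

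The remaining genes of the core set overlapped. Cdh1 was at 59.0, 48.5, 23.9 and 35.4 FPKM in knockdown libraries, against 47.7, 36.7 and 62.6 FPKM in control libraries. Ctnnb1 was at 44.4, 41.9, 23.0 and 30.1 FPKM in knockdown libraries, against 28.9, 55.6 and 41.8 FPKM in control libraries. In both genes the lowest value was in knockdown 3, and the control values lay within or above the knockdown range. Cldn6 was at 36.1, 50.4, 43.3 and 26.1 FPKM in knockdown libraries, against 34.1, 14.7 and 41.8 FPKM in control libraries. Tjp1 was at 5.13, 4.54, 1.87 and 2.07 FPKM in knockdown libraries, against 1.93, 4.59 and 2.83 FPKM in control libraries. The higher Tjp1 values were those of knockdown 1, knockdown 2 and control 2, which are the libraries with Rn45s at 0. Gja1 was at 53.1, 52.4, 19.3 and 8.21 FPKM in knockdown libraries, against 31.7, 49.6 and 18.4 FPKM in control libraries. Prkci was at 5.78, 5.87, 1.58 and 2.29 FPKM in knockdown libraries, against 2.33, 6.45 and 3.11 FPKM in control libraries. Both genes again were highest in the same 3 libraries. Pard6b was at 12.8, 14.9, 9.64 and 11.98 FPKM in knockdown libraries, against 8.86, 14.7 and 15.8 FPKM in control libraries, and Ezr at 20.2, 14.8, 12.3 and 6.16 FPKM in knockdown libraries, against 13.5, 16.8 and 13.2 FPKM in control libraries. Leaving out 1 library, the difference of Cdh1 was -0.46 to -0.037 and that of Ctnnb1 -0.50 to -0.043. The differences of these 8 genes lay between -0.27 and 0.44 on the log2 scale, with SE of 0.40 to 0.52, and each had a limma adjusted p of 0.99997. Within the 4 libraries with Rn45s above 0 (knockdown 3 and 4, control 1 and 3), 0 members were called. As 0 of all genes were called there too, this count cannot set the members apart.

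**Figure D4:**
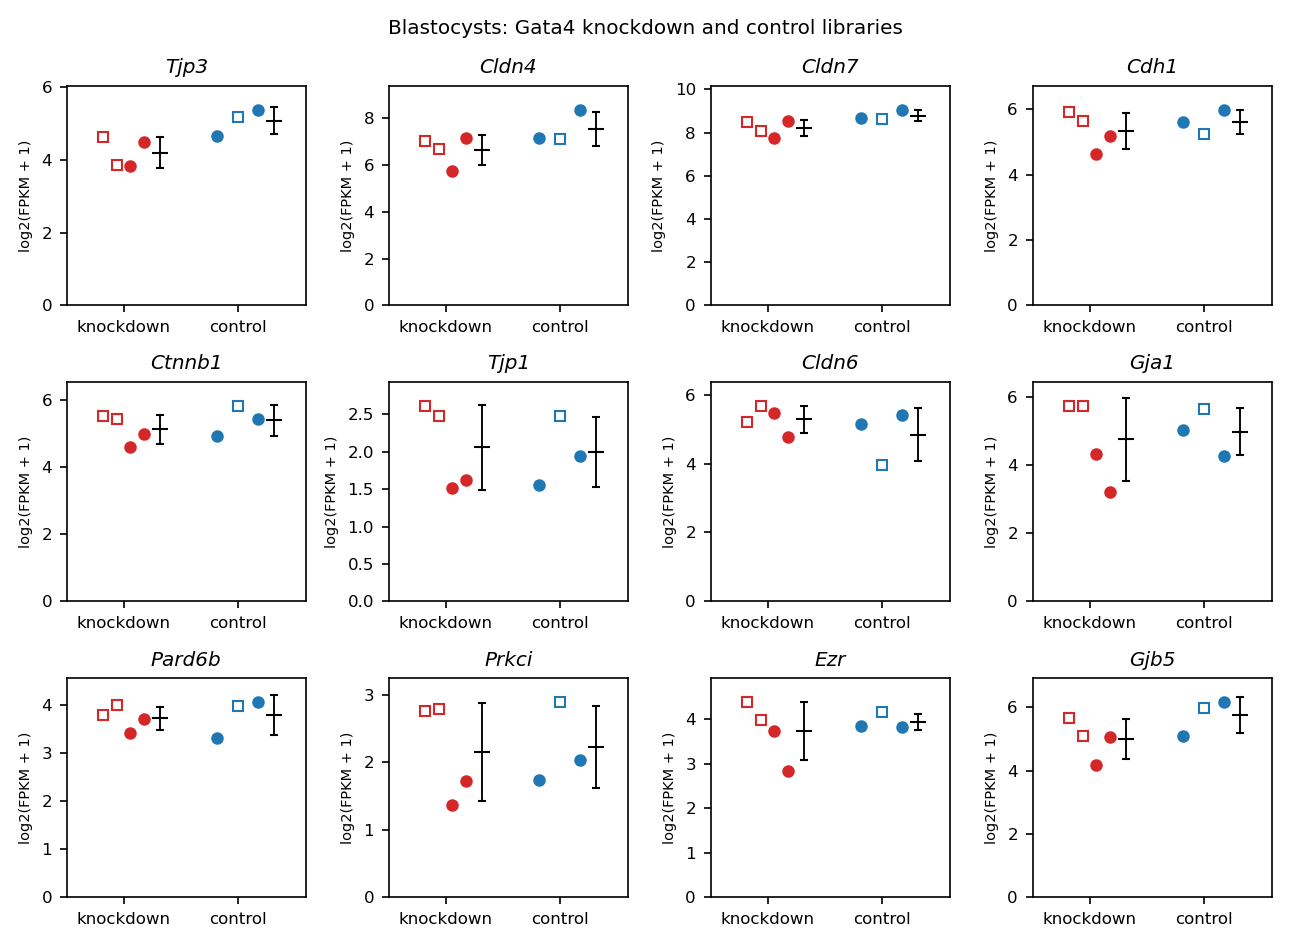
Level of 12 junction and polarity genes in each blastocyst library as log2(FPKM + 1), with Gata4 knockdown libraries (4, red) to the left of control libraries (3, blue). Bars give the mean and SD, and open squares mark the 3 libraries in which Rn45s was listed at 0. Tjp3 and Cldn7 have groups that do not overlap, and the open squares lie above the filled circles of Tjp1 and Prkci.

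Of the 69 other junction genes 35 were tested in blastocysts, 0 were called by limma and 2 had an unadjusted p under 0.05. The member Gjb5 was at 49.6, 32.9, 17.0 and 32.5 FPKM in Gata4 knockdown libraries, against 33.3, 62.5 and 71.4 FPKM in control libraries, with overlap. Among the other genes, Myl9, a myosin light chain, was at 6.13, 5.38, 1.33 and 19.1 FPKM in knockdown libraries, against 0.717, 2.05 and 2.24 FPKM in control libraries (1.40 ± 0.49, limma adjusted p = 0.99997). The sum of the 13 trophectoderm markers was 2631 to 6251 FPKM in knockdown and 3312 to 4809 FPKM in control libraries, and overlapped.

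Whole control blastocysts contain trophectoderm, the epithelium that tight junctions seal, so their levels were set beside those of ICM. Immunosurgery kills the outer cells, although trophectoderm markers were still found in ICM (Krt8 at 62.7 FPKM). The 2 tables were normalized separately, the blastocysts were injected and cultured, and ICM has 1 value per gene, so these are differences without a test, and tissue, treatment and table cannot be told apart. Of 28 members with 5 FPKM in either, 13 were higher in the mean of the 3 control blastocyst libraries than in ICM and 5 were lower, against 13.9% and 41.5% of 6316 genes, whose median difference was -0.73 on the log2 scale. Cldn4 was at 144, 136 and 331 FPKM in control blastocysts, against 9.31 FPKM in ICM, and its neighbour Cldn3 at 60.3, 87.2 and 188 FPKM in control blastocysts, against 8.06 FPKM in ICM. Both claudins were higher in every blastocyst library than in ICM. Cldn7 was at 393 to 535 FPKM in blastocysts and 72.6 FPKM in ICM, Cldn6 at 14.7 to 41.8 FPKM in blastocysts and 7.13 FPKM in ICM, and Tjp3 at 24.3 to 40.8 FPKM in blastocysts and 2.02 FPKM in ICM. Of desmosome genes, Dsp was at 5.16 to 11.8 FPKM in blastocysts and 0.624 FPKM in ICM, Pkp2 at 9.10 to 17.7 FPKM in blastocysts and 1.18 FPKM in ICM, and Jup at 15.8 to 24.3 FPKM in blastocysts and 5.62 FPKM in ICM. The polarity genes Crb3, Pard6b and Pard3, the adhesion gene Epcam and the ERM gene Msn, at 31.2 to 59.8 FPKM in blastocysts and 6.93 FPKM in ICM, completed the 13. In all 13 each of the 3 blastocyst libraries was above the ICM value.

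The 5 members that were lower in control blastocysts were Gja1, at 31.7, 49.6 and 18.4 FPKM in control blastocysts, against 233 FPKM in ICM, Gjb5, at 33.3 to 71.4 FPKM against 153 FPKM in ICM, Ezr, at 13.2 to 16.8 FPKM against 49.0 FPKM in ICM, Prkci, at 2.33 to 6.45 FPKM against 14.8 FPKM in ICM, and Rdx, at 8.88 to 12.5 FPKM against 28.9 FPKM in ICM. In all 5 every blastocyst library was below the ICM value. Log2 differences of blastocysts from ICM were -2.77 for Gja1, -1.69 for Ezr, -1.67 for Prkci, -1.44 for Gjb5 and -1.41 for Rdx. The median over all genes was -0.73 and 41.5% of them were lower, so the share of members that were lower was below that of all genes. The rule was not repeated with a common median. Cdh1 was at 36.7 to 62.6 FPKM in blastocysts and 42.3 FPKM in ICM and did not differ by this rule. The sum of 13 trophectoderm markers was 3312 to 4809 FPKM in control blastocysts and 349 FPKM in ICM, and its part in the levels of the 13 higher genes was not tested.

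**Figure D5:**
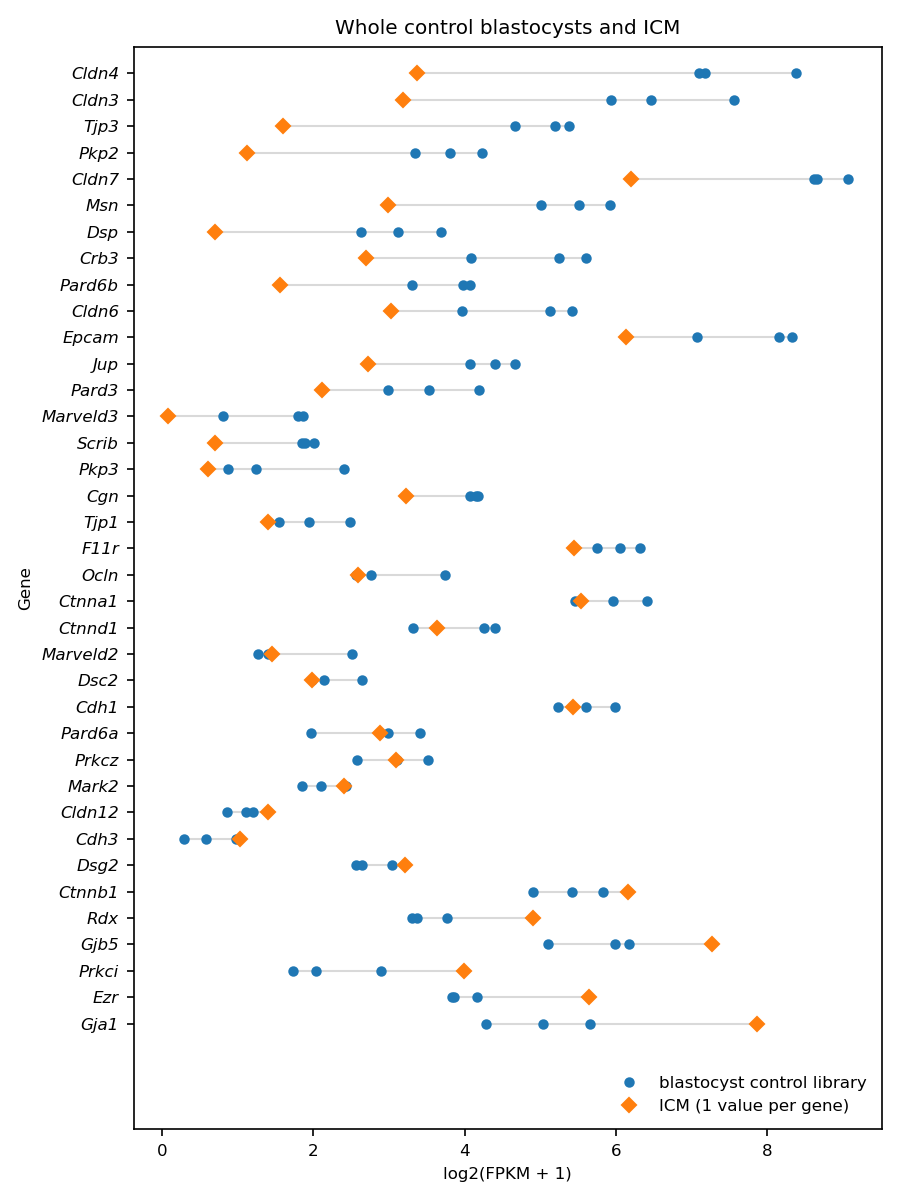
Level of the 37 genes as log2(FPKM + 1) in each of the 3 control blastocyst libraries (circles) and in ICM (diamonds, 1 deposited value per gene), from 2 tables normalized separately. Genes are ordered by the difference of the blastocyst mean from ICM, from Cldn4, Cldn3 and Tjp3 at the top to Prkci, Ezr and Gja1 at the bottom.

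The injected control embryos at the 8-cell stage were likewise set beside the uninjected 8-cell stage, again across tables and without a test. Of 17 members with 5 FPKM in either, 4 were higher in the mean of the 4 injected controls (Ctnnb1, Epcam, Cldn4 and Cldn7) and 2 lower (F11r and Cgn), against 11.7% and 25.5% of 5811 genes. Cldn4 was at 36.6 to 137 FPKM in injected controls and 22.1 FPKM in the uninjected 8-cell stage, and Cldn7 at 127 to 328 FPKM in injected controls and 82.5 FPKM in the uninjected stage. F11r was at 32.2 to 98.9 FPKM in injected controls and 146 FPKM in the uninjected stage, and Cgn at 1.88 to 3.19 FPKM in injected controls and 10.8 FPKM in the uninjected stage. The low knockdown values of Cldn4, 16.4 to 53.0 FPKM, thus span the uninjected level.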

How the data were processed

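Per the submitters' processing notes, all 32 samples were processed with CASAVA 1.8 and STAR 2.4.0 on the mouse build mm9, and 20 with Cufflinks 2.2.1, which is not named for the 8-cell knockdown table, the MII oocytes or the early 2-cell stage. The authors deposited FPKM values in 3 tables, which were normalized separately, and the way samples of a stage were combined into its column is not given in the sources used here. The MII oocyte column had 30 genes without a value. Strand, read totals and copy handling are not given in the sources used here. Steps between low FPKM values were examined and gave no reliable relative depth between libraries, so depth is unknown.

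A gene entered a knockdown test if it reached 1 FPKM in 4 libraries (8-cell) or 3 libraries (blastocyst), the size of the smaller group, and log2(FPKM + 1) was compared, knockdown minus control, with limma 3.58.1 in R 4.3.3 with a trend in the prior variance. A fold change on this scale understates low genes. P-values were Benjamini-Hochberg adjusted over all genes tested, and called under 0.05. Stages were compared without a test. The fits were tested on simulated data: of genes shifted by 1 and 2 log2 units, 40% and 91% were recovered in the 8-cell table (8170 genes), and 2% and 44% in the blastocyst table (8782 genes). Only genes above a set control level were shifted, which Ezr and Cldn12 do not reach in 8-cell controls. Noise was drawn separately for each gene, so shifts shared by the genes of a library were not simulated. Replicates within a group correlated at 0.965 to 0.987 across genes. Alternatives were other pseudocounts, no filter, median scaling, quantile normalization, a replicate block, leaving out each library, library type as a covariate and, chosen after seeing the data, a fit within the libraries with Rn45s and median scaling beside library type. Copies were searched with minimap2 2.31-r1302 (95% identity over 50% of the coding sequence, GENCODE M21). Promoter windows came from RefSeq tables of GRCm38.p6. Python 3.11.15, pandas 2.3.3, numpy 2.4.6 and matplotlib 3.10.9 were used.

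The members, the lists and the motifs were chosen with earlier results of these data known. Values per library are given for members with an unadjusted p under 0.05 and for Cdh1, Ctnnb1, Tjp1, Cldn4, Cldn6, Gja1, Pard6b, Prkci and Ezr, for other junction genes that were called or among the highest of a list, and for Nr5a2 and Gata4. Any member may serve as an example, and Cldn7, Tjp3 in 8-cell embryos, Nf2, Llgl1, Mark1 and Myl9 were singled out after their values were seen. Some results of the other junction genes are not reported here.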

Additional observations from a re-analysis of the deposited data

Results flagged for a closer look

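In 4 of 32 groups of 4 libraries examined, 1 library lay far from the other 3. This was measured on the log2(FPKM + 1) scale, as its gap to the nearest library divided by the range of the group. Chance puts about 1 in 20 groups past the limit used, Dixon's critical value at 95%. Cldn6 in the 8-cell control libraries had a gap of 0.8923 of the range, with control 1 the lowest at 8.21 FPKM and the others at 17.6 to 19.2 FPKM. Prkcz in the control libraries had a gap of 0.8447, with control 2 the highest at 4.88 FPKM. Ezr, the apical ERM gene, had a gap of 0.865 in the Nr5a2 knockdown libraries, with knockdown 1 the highest at 2.94 FPKM, and of 0.8798 in the control libraries, with control 1 the highest at 0.941 FPKM.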

How the results depend on the processing

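Of the members, 0 were called under any alternative in either knockdown, except Cldn4 without knockdown 3 in the Nr5a2 comparison, so leaving out a library gave 0 to 1. The 8-cell count over all genes (185) was 108 with a pseudocount of 0.1, 11 without the filter and 21 to 285 leaving out each library; of the other junction genes 1 (Nf2) was called with median scaling. The blastocyst count over all genes (3) was 1 with a pseudocount of 0.1, 1 to 27 leaving out each library, and 0 without the filter, with median scaling, with quantile normalization, with library type as a covariate, within the libraries with Rn45s and with median scaling beside library type; of the other junction genes 0 to 1 was called leaving out each library. With the replicate block, which in blastocysts also leaves out knockdown 4 because no control has its number, 55 genes were called in 8-cell embryos and 16 in blastocysts, with 0 members in both and 1 other junction gene in blastocysts. Correlations of same-numbered libraries, after centring each group, were -0.11 to 0.08 in 8-cell embryos and -0.10 to 0.28 in blastocysts. So few pairs cannot decide whether the numbers pair the libraries, which is not known. Nr5a2 itself had an adjusted p of 0.0845 without the filter and 0.0611 without control 1. In the Nr5a2 knockdown Gja1 was -0.11 to 0.19 and Pard6b -0.11 to 0.50 leaving out each library. In the Gata4 knockdown, leaving out each library gave -0.15 to 0.31 for Tjp1, -0.58 to 0.29 for Gja1, -0.30 to 0.084 for Pard6b, -0.31 to 0.27 for Prkci and -0.43 to 0.089 for Ezr. With the block Gja1 was 0.29, Prkci 0.079 and Ezr 0.089, the same values as without knockdown 4 and no block. Tjp1 was -0.080 with library type as a covariate and -0.17 within the libraries with Rn45s, Cldn6 was -0.16 within them, and Pard6b was 0.063 with median scaling beside library type. With stage counts, a floor of 1 FPKM gave 1 member higher in early 2-cell embryos than zygotes (F11r), and median scaling gave 11 members lower at the 2-cell stage than early 2-cell, 2 lower at the 4-cell than the 2-cell stage and 9 lower in mESC than ICM. The cause was not tested for any of these. The depth of the libraries is not known, so values under about 1 FPKM carry no limit of detection here.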
